A study of Mus musculus with 4 samples.

Results

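Fibroblasts of the posterior hindbrain and its meninges made up 819 of the 39461 nuclei kept in a single-nucleus RNA sequencing experiment on mouse hindbrain. They were taken as every nucleus that passed the quality filters of the authors and that their annotation named Fibroblasts, and they fell into 5 of the authors' preliminary clusters, numbered 27, 44, 47, 69 and 93. The tissue was the part of the hindbrain that holds the area postrema and the nucleus tractus solitarius, from mice of both sexes aged 12 to 20 weeks. Each of the groups, control and AgRP-Gq;POMC-Gi, gave 2 libraries. AgRP-Gq;POMC-Gi mice carried AgRP-IRES-Cre+/- with hM3DGq fl/-, and POMC-Dre+/- with hM4DGi fl/-, so that the excitatory receptor hM3DGq was placed in AgRP neurons and the inhibitory receptor hM4DGi in POMC neurons. Both of these neuron types lie mainly in the hypothalamus, and no receptor was directed to fibroblasts. The controls, labelled WT, are described by the study as mice without either recombinase. All mice, controls included, received 3 mg/kg of clozapine-N-oxide (CNO), the ligand of both receptors, by intraperitoneal injection and were killed after 1 h without food. Each group had 2 mice, whose tissue is described as pooled, and which mice each library held is not stated. Sex-linked genes, given below, showed nuclei of both sexes, and so of more than 1 mouse, in all libraries but AgRP-Gq;POMC-Gi 2. Whether the libraries of a group shared mice is not stated, so p-values here measure only the spread between libraries.

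Brain fibroblasts lie in the membranes that wrap the brain and along the larger vessels that enter it. From inside to outside these are the pia, the arachnoid with its inner part and its barrier layer, and the dura, with a border layer between arachnoid and dura. Fibroblasts secrete collagens, laminins and proteoglycans, make retinoic acid and bone morphogenetic proteins (BMPs), and carry transporters that move solutes between cerebrospinal fluid and tissue.

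The markers of the label were present. Decorin (Dcn, chr10:97479609-97518143 on GRCm38), a small proteoglycan that binds collagen fibrils, gave a unique molecular identifier (UMI, 1 counted RNA molecule) in 534 of the 819 nuclei, and Col1a2 (chr6:4504814-4541544), a chain of type I collagen, in 393. At least 1 of the 2 genes was seen in 667 nuclei. Dcn was seen in 87.5% of the fibroblast nuclei of control 1, 59.3% of control 2, 59.7% of AgRP-Gq;POMC-Gi 1 and 75.3% of AgRP-Gq;POMC-Gi 2. In oligodendrocytes, which should lack the gene, the shares were 1.51%, 4.02%, 1.67% and 2.42%, at a median of 2460 UMIs per nucleus against 2320 in fibroblasts. After every nucleus was thinned to 800 UMIs, which left none out, Dcn was seen in 63.9%, 41.7%, 40.9% and 51.8% of fibroblast nuclei and in 0.622% to 1.23% of oligodendrocytes.

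The libraries gave unequal numbers of fibroblasts. Control 1 held 72, control 2 held 391, AgRP-Gq;POMC-Gi 1 held 186 and AgRP-Gq;POMC-Gi 2 held 170, with 179778, 1048128, 442949 and 409647 UMIs. As a share of all kept nuclei this was 0.74% (95% exact Clopper-Pearson interval 0.58 to 0.931) in control 1, 3.89% (3.52 to 4.29) in control 2, 1.91% (1.65 to 2.21) in AgRP-Gq;POMC-Gi 1 and 1.71% (1.46 to 1.98) in AgRP-Gq;POMC-Gi 2. These intervals cover counting error only. The control libraries lay on either side of the AgRP-Gq;POMC-Gi libraries, and the means of 2.32% and 1.81% did not differ beyond that spread (exact permutation test over libraries, two-sided, p = 1, where 2 against 2 cannot give less than 0.333). No fibroblast barcode was shared between fibroblasts of different libraries, and 5 occurred among kept nuclei of another library.

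The mix of clusters varied between libraries of the same group. In control 1, 55 of 72 fibroblast nuclei (76.4%) belonged to cluster 44, against 15.1% in control 2, 10.8% in AgRP-Gq;POMC-Gi 1 and 16.5% in AgRP-Gq;POMC-Gi 2. Cluster 27 held 9.72% and 29.4% of control fibroblasts and 35.5% and 43.5% of AgRP-Gq;POMC-Gi fibroblasts. The groups did not overlap, with a difference of means of 19.9 points (exact permutation p = 0.333, the smallest possible, adjusted p = 1 over 5 clusters). Out of all kept nuclei they did overlap for cluster 27, at 0.072% and 1.14% in the controls against 0.679% and 0.743%. Cluster 44 was then apart, at 0.566% and 0.587% against 0.206% and 0.281% (exact permutation p = 0.333). Cluster 47 held 8.33%, 22.3%, 7.53% and 30.6%, cluster 69 held 1.39%, 16.6%, 28% and 7.65%, and cluster 93 held 4.17%, 16.6%, 18.3% and 1.76% of the fibroblasts of the same libraries in that order. All 3 of these clusters overlapped between groups, with exact permutation p of 0.667 or 1. Choroid plexus nuclei, a tissue attached to the same membranes, numbered 2, 436, 6 and 329 in the 4 libraries. Control 2 and AgRP-Gq;POMC-Gi 2 thus shared more choroid plexus, while control 2 and AgRP-Gq;POMC-Gi 1 shared more of clusters 69 and 93. Cluster 47 had most of its nuclei in control 2 and AgRP-Gq;POMC-Gi 2, at 6, 87, 14 and 52 in library order.

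**Figure D1:**
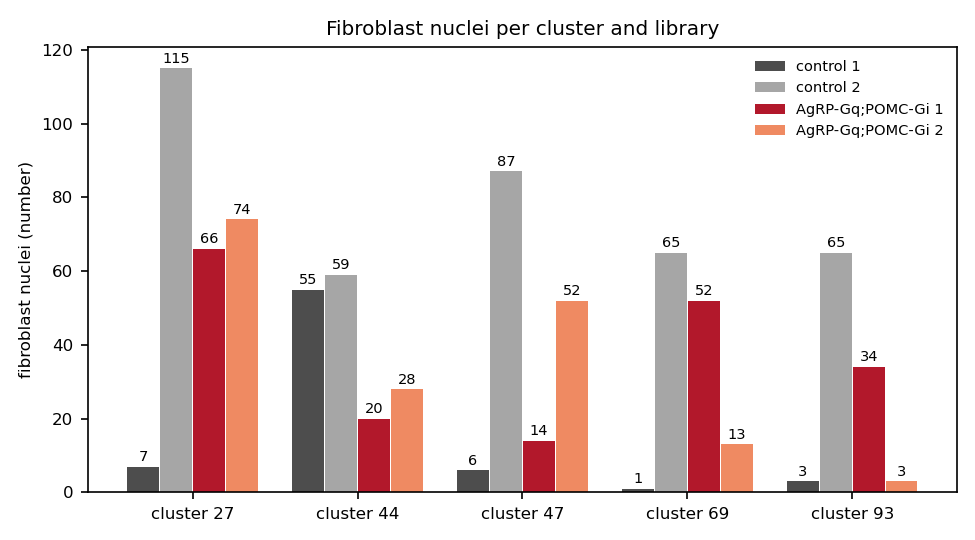
Number of fibroblast nuclei (vertical axis) in each of the 5 clusters (horizontal axis), with 1 bar per library and the count above it. Control 1 has 55 of its nuclei in cluster 44 and at most 7 in any other cluster, and clusters 69 and 93 come mostly from control 2 and AgRP-Gq;POMC-Gi 1.

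Sex-linked genes were shared out differently in clusters 69 and 93 than in the oligodendrocytes of the same libraries. The cause was not tested. Xist, the RNA that silences an X chromosome in female cells, was seen in 37.1% of the oligodendrocytes of control 2, but in 62 of its 65 nuclei of cluster 69 (95.4%, exact interval 87.1 to 99) and in 61 of its 65 nuclei of cluster 93 (93.8%). In AgRP-Gq;POMC-Gi 1 the order was turned round, with Xist in 60.9% of oligodendrocytes but in 6 of 52 nuclei of cluster 69 (11.5%, 4.35 to 23.4) and in 5 of 34 of cluster 93 (14.7%). A UMI of Uty, Ddx3y, Eif2s3y or Kdm5d, genes of the Y chromosome, gave the mirror image. Such a UMI was seen in 4.62% of cluster 69 and 3.08% of cluster 93 in control 2 against 36.3% of its oligodendrocytes, and in 73.1% and 70.6% in AgRP-Gq;POMC-Gi 1 against 17.5%. At 800 UMIs per nucleus the Xist shares of cluster 69 were 80% in control 2 and 9.62% in AgRP-Gq;POMC-Gi 1, against 24.2% and 44.9% in oligodendrocytes. AgRP-Gq;POMC-Gi 2 had Xist in 2.39% of its oligodendrocytes and in 0 of 13 nuclei of cluster 69, and a Y-linked UMI in 59.2% of its oligodendrocytes. The oligodendrocytes of control 1 gave Xist in 53.7% and a Y-linked UMI in 26.9%. Both kinds of UMI were common in all libraries but AgRP-Gq;POMC-Gi 2, so each of those held nuclei of more than 1 mouse. The AgRP-Gq;POMC-Gi libraries thus differed in their mix of sexes. Over all fibroblasts the groups were apart for these genes, with Xist in 63.9% and 70.3% of control nuclei against 32.8% and 1.18% of AgRP-Gq;POMC-Gi nuclei, and a Y-linked UMI in 19.4% and 21.2% against 49.5% and 67.6%, so that in every comparison over all fibroblasts these shares moved with the group. In cluster 44 the groups overlapped for both (Xist in 60% and 44.1% of control nuclei against 65% and 3.57%, and a Y-linked UMI in 21.8% and 42.4% against 25% and 57.1%). Clusters 69 and 93 had at least 5 nuclei in a single control library, so within them group, library and sex cannot be told apart, and no test between groups was made in them.

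**Figure D2:**
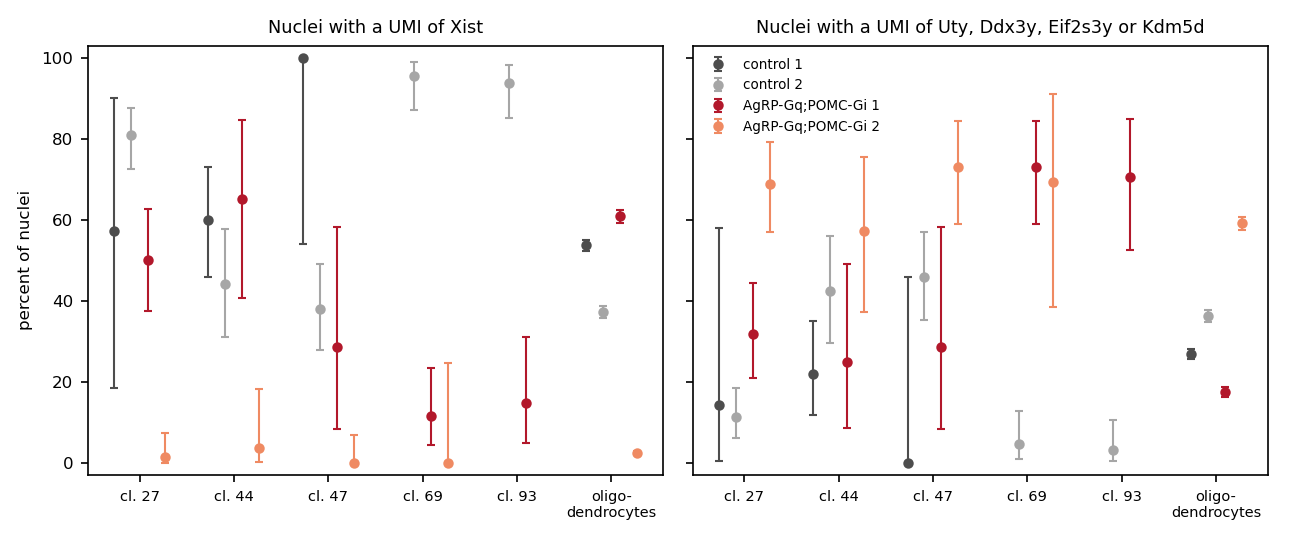
Percent of nuclei with a UMI of Xist (left) or of any of 4 Y-linked genes (right) in the fibroblast clusters and, for comparison, in oligodendrocytes, with 1 point per library and its 95% exact binomial interval; libraries with fewer than 5 nuclei of a cluster are not drawn. Control 2 is near 95% and AgRP-Gq;POMC-Gi 1 near 11.5% for Xist in cluster 69, the reverse of their order in oligodendrocytes.

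The 20 genes with the largest ratio of fibroblasts over the next highest of the other 13 annotated cell types were led by Aox3, Cemip, Lama1 and Dcn. Since cell types were made from expression, these levels are a description with no test. Levels are CPM, UMIs of a gene scaled to a total of 1000000 UMIs of the library's fibroblasts, given as mean ± SD over the 4 libraries. Aox3, an aldehyde oxidase, stood at 247 ± 143 and was 64.5-fold above the next highest cell type. Cemip, which helps to break down hyaluronan, stood at 787 ± 346 (41.5-fold), the laminin chain Lama1 at 911 ± 789 (20.3-fold) and Dcn at 1254 ± 449 (15.1-fold). The collagen chains Col1a1 (176 ± 17, 12.3-fold), Col3a1 (238 ± 56.1, 6.45-fold), Col1a2 (315 ± 23.6, 5.19-fold) and Col4a6 (445 ± 299, 3.92-fold) were among the same 20 genes. So were the ADAMTS-family metalloprotease Adamts12 (5.67-fold) and the fibulins Fbln1 (3.74-fold) and Efemp1 (3.39-fold). The spread between libraries was small for Col1a1 and Col1a2 and wide for Lama1, which stood at 2086 in control 1 and at 406, 508 and 644 in the other libraries.

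Beside these the list held transporters, enzymes and growth factors. Slc6a13, a transporter of GABA and taurine, stood at 753 ± 261, which was 8.51-fold above mural cells. Ptgds, the synthase of prostaglandin D2, reached 10487 ± 8318 and was seen in 89.4% of fibroblast nuclei, 4.03-fold above oligodendrocytes. The growth factor Igf2 stood at 324 ± 39.6 (4.58-fold), the inhibitor of complement C1 Serping1 was 6.6-fold and the matricellular protein Ccn2 4.77-fold above the next type. Tmtc4, Fhl2, 4930594M22Rik and Gm29683 completed the 20. Tmtc4 and 4930594M22Rik overlap on opposite strands, so their reads may not be separable. Some genes with like or larger ratios were seen in fewer nuclei than the 25% asked of that list, among them the drug and cation exporter Slc47a1 (69.7-fold), the proteoglycan Lum (28.2-fold), the retinol carrier Rbp4 (21.9-fold) and the anion exchanger Slc26a7 (17.8-fold).

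**Figure D3:**
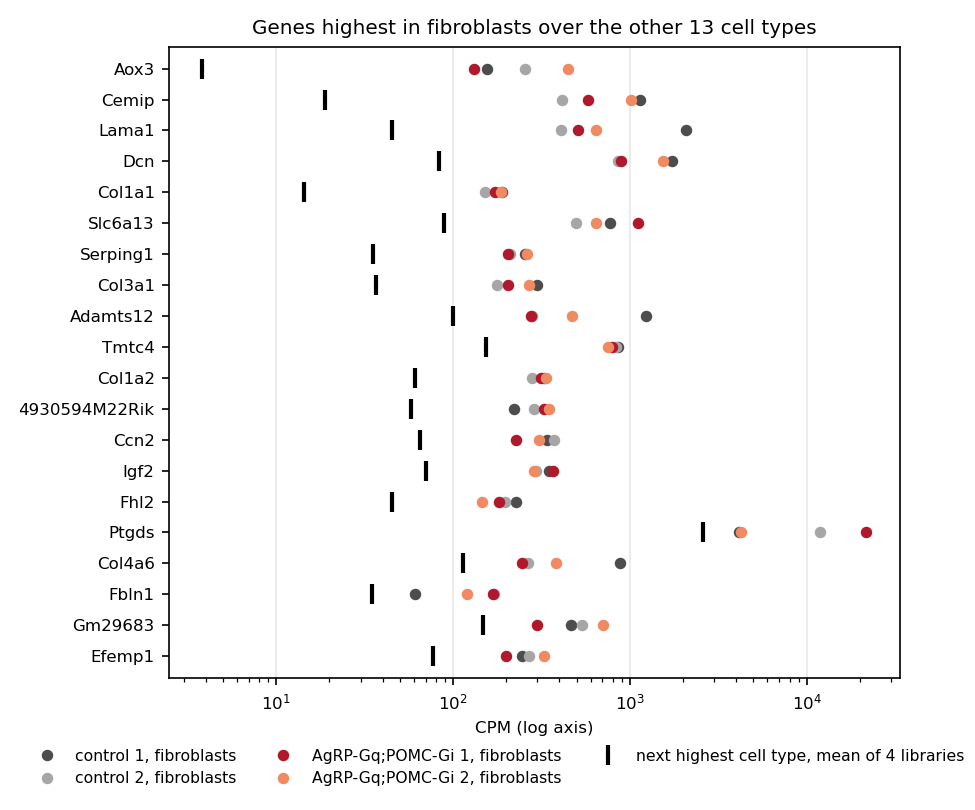
CPM on a log axis for the 20 genes with the largest ratio of fibroblasts over the next highest of the other 13 cell types, with 1 point per library for fibroblasts and a black bar for the mean of the next type. Every fibroblast point lies to the right of its bar.

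Of the 7973 genes seen in at least 5% of fibroblast nuclei, 767 (9.62%) were highest in fibroblasts. Among all members of the lists of genes grouped by role, seen that often or not, fibroblasts were the highest of the 14 cell types for 7 of 12 fibrillar and associated collagens, 10 of 26 basement membrane genes, 17 of 27 genes of small proteoglycans and elastic fibres and 12 of 24 matrix processing enzymes and inhibitors. They were also highest for 13 of 31 solute transporters of the leptomeninges and 6 of 10 prostaglandin genes. For signals, the counts were 5 of 15 genes of the retinoic acid pathway, 6 of 29 of the BMP and TGF-beta pathway, 9 of 25 of the Wnt pathway and 6 of 24 IGF, PDGF, FGF and chemokine genes. Of 34 mesenchymal and meningeal transcription factors 22 were highest in fibroblasts, among them Foxd1 (281 ± 30.2), Foxp2 (730 ± 140) and Eya1 (542 ± 154). Counted over the members seen in at least 5% of nuclei only, the shares of the lists above ran from 26.3% (5 of 19 IGF, PDGF, FGF and chemokine genes) to 85.7% (18 of 21 transcription factors), while 2 of 12 clock genes (16.7%) and 1 of 12 glucocorticoid-induced genes (8.33%) were highest in fibroblasts. Of the 10 immediate early genes that the study used to score neuronal activation, 0 were highest in fibroblasts. Fos was seen in 1.95% of fibroblast nuclei, with 0, 7, 5 and 4 UMIs in control 1, control 2, AgRP-Gq;POMC-Gi 1 and AgRP-Gq;POMC-Gi 2.

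Cluster 44 was called pial and perivascular-like from its markers, since 6 of 10 markers of that list were highest there. Cluster levels are means over the libraries with at least 5 nuclei of the cluster, which were all 4 for clusters 27, 44 and 47, 3 for cluster 69 and 2 for cluster 93, and they too are a description since clusters were made from expression. The summed level of the 10 pial and perivascular markers was 7221 in cluster 44, against 3914, 2681, 2170 and 617 in clusters 27, 47, 69 and 93. Lama1 stood at 2653 ± 364 and was seen in 93.8% of nuclei, with Col4a5 at 1550 ± 202, Col4a6 at 1172 ± 228 and Lamc1 at 882 ± 132. The leading genes were Srpx2, Pde1c, Entpd2, which splits extracellular nucleotides, the glutamine transporter Slc1a5, Col15a1 (460 ± 132) and Fbln2 (281 ± 29.5). Pdgfra (1054 ± 229), the receptor for PDGF, the alarmin Il33 (236 ± 20.1) and the lipid transporter Abca8a (936 ± 355) were also highest there.

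Cluster 69 was called inner arachnoid-like, since 9 of 10 markers of that layer were highest there and their sum was 11964 against 5472 in cluster 27 and 105 to 1878 in the others. The summed level of the 6 dural border markers was also highest there, at 35427 against 7447 in cluster 93 and 13755 in cluster 27, with 2 of the 6 highest in cluster 69, and nearly all of that sum was Ptgds, which is one of them. Ptgds stood at 35013 ± 19665 in its 3 libraries and was seen in 100% of its nuclei. Ranbp3l (4836 ± 2180), the retinoic acid synthase Aldh1a2 (476 ± 320), the dicarboxylate transporter Slc13a3 (459 ± 93.9) and the GABA transporter Slc6a13 (1220 ± 255) were highest in it. The summed level of the 15 pan-fibroblast markers was lowest in this cluster, at 3947, with 0 of them highest there. The leading genes were Nnat, Syt9, Aifm3, Aspg, Serpind1 and Ppp1r1a. Nnat, an imprinted gene for a membrane protein of the endoplasmic reticulum, varied from 199 in AgRP-Gq;POMC-Gi 2 to 2715 in AgRP-Gq;POMC-Gi 1 and 6245 in control 2.

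Cluster 93 held transporters of anions and drugs. Slc26a7 (1244 ± 23, 83.8% of nuclei) and Slc47a1 (3528 ± 864, 98.1%) were joined by the bicarbonate transporter Slc4a10 (5622 ± 976), Slc47a2 (383 ± 19.5), the efflux pumps Abcb1a (508 ± 80.2) and Abcg2 (576 ± 154), and the signal Rspo3 (1233 ± 53), which strengthens Wnt signalling. Its leading genes were Gm6260, Gm26740, Rtl4, Slc26a7, the membrane collagen Col25a1 (3975 ± 812) and Raet1e. Gm26740 lies inside Raet1e on the opposite strand, so their reads may not be separable. Foxp1 stood at 4675 ± 174 and Tbx15 at 308 ± 175. Dcn was at only 49 ± 7.86, and Lama1, Cemip and Col4a6 had no UMI in either of its 2 libraries. Markers of 3 layers pointed to it, with 6 of 10 arachnoid barrier markers, 4 of 6 dural border markers and 4 of 10 dural markers highest in it, so no layer name was given. Of the genes known from the arachnoid barrier, the cadherin Cdh1 stood at 182 ± 111 in cluster 93, in 27.6% of nuclei, and had no UMI in cluster 44, while the keratins Krt8 and Krt18 were each seen in only 0.244% of fibroblast nuclei.

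Clusters 27 and 47 were not named from a layer. Of the solute transporters, cluster 27 had Slc6a20a at 2067 ± 609 and Slc6a13 at 1043 ± 499, the latter below its level in cluster 69. Cluster 27 had Ptgds at 13106 ± 6606 and kept Dcn at 1320 ± 60.5. Its leading genes were Ndnf, Lmntd1, the adhesion protein vitronectin (Vtn, 1481 ± 508, 70.6% of nuclei), Ldb2, Gcnt2 and Rpl26. Igf1 (316 ± 137) and Wnt4 (352 ± 110) were highest there. Cluster 47 had the highest sum of the 15 pan-fibroblast markers (9087) and the highest Dcn (2197 ± 840). It was led by Nr1h4, which encodes the bile acid receptor FXR, Dpep1, Emcn, Col14a1, Matn2 (342 ± 64.4) and the alkaline phosphatase Alpl. Nr1h4 stood at 162 in control 2 and at 138 in AgRP-Gq;POMC-Gi 2 and had no UMI in control 1 and AgRP-Gq;POMC-Gi 1. Those last libraries held only 6 and 14 nuclei of the cluster, and few choroid plexus nuclei.

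**Figure D4:**
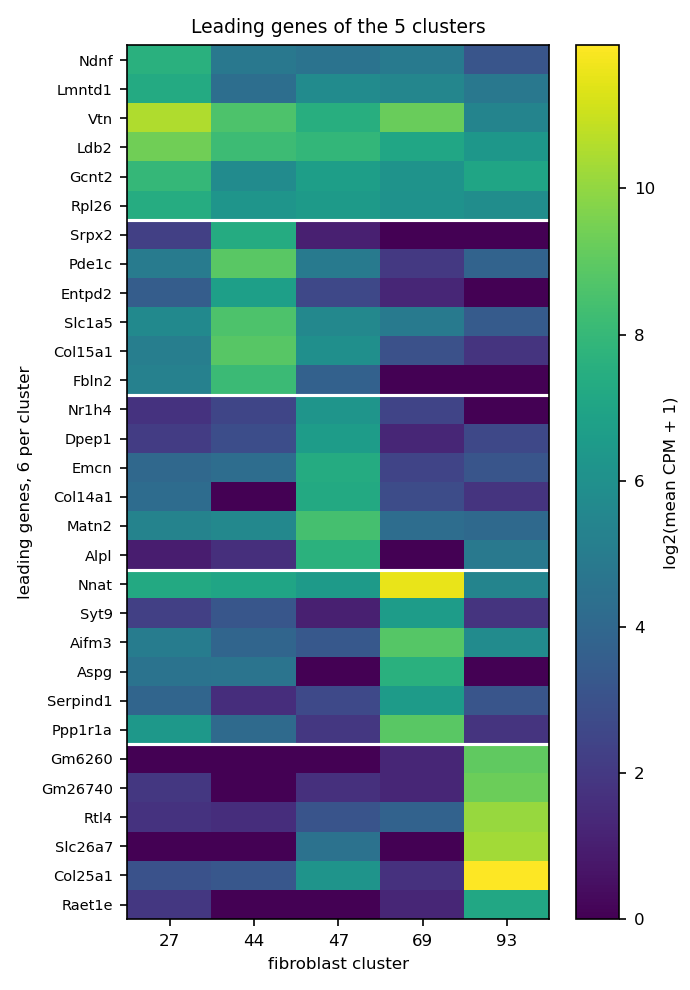
Mean level, as log2(mean CPM + 1), of the 6 leading genes of each cluster (rows, grouped by white lines) in the 5 clusters (columns). Each of the 30 genes has its highest level in its own cluster because the genes were chosen by their ratio over the other clusters.

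The effect of the AgRP-Gq;POMC-Gi genotype under CNO was asked in cluster 44 first, because it had at least 20 nuclei in every library. UMIs were summed per library and tested with the quasi-likelihood test of edgeR with Benjamini-Hochberg adjustment over all genes seen in at least 5% of the nuclei. Of 6859 genes, 1 rose (0.0146%) and 5 fell (0.0729%) at an adjusted p under 0.05, together 0.0875%, while 384 (5.6%) had an unadjusted p under 0.05. They divide by how many nuclei carried them. Fkbp5 and Zbtb16 were spread over many nuclei of every library, while Gpc5, Adgrb3, Trpm3 and Pex5l had most of their UMIs in 1 nucleus of the libraries where they were highest.

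Fkbp5 (chr17:28399094-28517527, minus strand), a co-chaperone that dampens the glucocorticoid receptor and is itself induced by it, stood at 1181 CPM in control 1, 878 in control 2, 399 in AgRP-Gq;POMC-Gi 1 and 338 in AgRP-Gq;POMC-Gi 2. Both AgRP-Gq;POMC-Gi libraries lay below both controls, and UMIs came from 45 of 55, 42 of 59, 11 of 20 and 10 of 28 nuclei. The log2 fold change was -1.50 (SE 0.32, edgeR adjusted p = 0.0463). Zbtb16 (chr9:48654297-48836222, minus strand), a transcription factor also induced by glucocorticoids, stood at 1002, 887, 374 and 244, from 43, 42, 11 and 10 nuclei. Its log2 fold change was -1.65 (SE 0.33, edgeR adjusted p = 0.0294). Over 9 other settings the adjusted p of Fkbp5 ranged from 0.00208 to 0.999 and passed in 2, and that of Zbtb16 from 0.000127 to 0.999 and passed in 3. Leaving out control 1, control 2 or AgRP-Gq;POMC-Gi 2 ended both calls (log2 fold change -1.28, -1.69 and -1.34 for Fkbp5, and -1.55, -1.72 and -1.30 for Zbtb16), and DESeq2 called 0 of the 6 genes.

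The other calls were carried by few nuclei. Gpc5, a cell-surface proteoglycan, had 49 and 79 UMIs in control 1 and control 2 and 0 in both AgRP-Gq;POMC-Gi libraries, which makes it at least 15.9-fold lower when 3 counts are allowed over the AgRP-Gq;POMC-Gi group. Of those UMIs 48 of 49 and 69 of 79 came from 1 nucleus of each control library. For the adhesion receptor Adgrb3 (46, 48, 2 and 2 UMIs), the highest single nucleus held 34 and 25 UMIs in the controls. For the cation channel gene Trpm3 (49, 72, 5 and 1 UMIs) it held 45 and 44. Pex5l, the only gene that rose, had 7, 4, 30 and 4 UMIs, of which 28 of the 30 in AgRP-Gq;POMC-Gi 1 were in 1 nucleus, and without that library its log2 fold change went from 3.08 to 0.73. The test sees each library as 1 sum and cannot tell such a nucleus from a general change. Summed markers of astrocytes were at 217, 566, 175 and 75.2 CPM in cluster 44 of the 4 libraries, those of neurons at 93.2, 263, 449 and 263, and those of the dural border at 1087, 2291, 748 and 883. Those of the inner arachnoid were at 1367, 1732, 2044 and 2368, and at 1150, 1092, 1072 and 1221 without Slc7a11, which is one of them. The groups were apart in all 4 lists, but all but met for neurons and overlapped for the inner arachnoid without Slc7a11, and the part of these markers in these calls was not tested.

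Neither Fkbp5 nor Zbtb16 passed the threshold in cluster 27, in cluster 47 or over all fibroblasts. In cluster 47 Fkbp5 stood at 1465, 1473, 555 and 778 and in cluster 27 at 1354, 942, 706 and 365, again with no overlap between groups. Where a library had at least 5 nuclei, it stood in cluster 69 at 1118 in control 2, 430 in AgRP-Gq;POMC-Gi 1 and 313 in AgRP-Gq;POMC-Gi 2, and in cluster 93 at 2585 in control 2 and 1032 in AgRP-Gq;POMC-Gi 1. Zbtb16 stood at 1120, 947, 247 and 427 in cluster 47, but at 602, 797, 600 and 271 in cluster 27, where AgRP-Gq;POMC-Gi 1 nearly reached control 1. An antisense transcript annotated inside Fkbp5, Gm22146 (chr17:28446500-28456457, plus strand), stood at 139, 198, 56.4 and 31.7 in all fibroblasts. How strand was used in counting is not given in the sources used here, so reads of the 2 may not be separable.

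**Figure D5:**
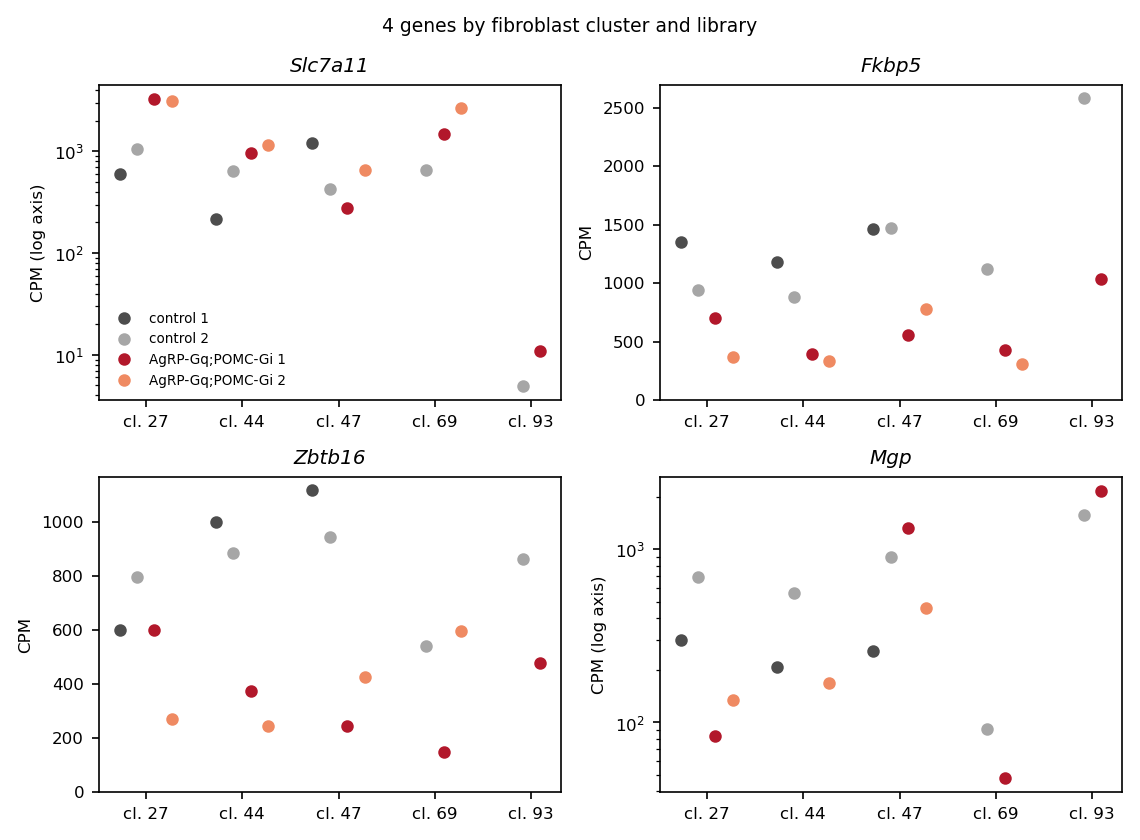
CPM of 4 genes in the 5 fibroblast clusters, with 1 point per library that had at least 5 nuclei of the cluster; Slc7a11 and Mgp are on log axes, on which a level of 0 (Mgp in cluster 44 of AgRP-Gq;POMC-Gi 1 and in cluster 69 of AgRP-Gq;POMC-Gi 2) is not drawn. No AgRP-Gq;POMC-Gi point of Fkbp5 lies above a control point of its cluster, the groups of Zbtb16 overlap in cluster 69 (597 against 544) and nearly meet in cluster 27 (600 against 602), and those of Slc7a11 are apart in clusters 27 and 44 and mixed in cluster 47.

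The same genes belong to a list of 16 genes known to be induced by glucocorticoids, hormones of the adrenal cortex. Of the 12 members tested in all fibroblasts, 11 had a log2 fold change below 0, beside 50.4% of all genes, and 11 were lower in both AgRP-Gq;POMC-Gi libraries than in both controls, where 17.1% of all 7973 genes tested were lower without overlap. Their median log2 fold change was -0.80 against -0.01 over all genes. None passed the adjusted threshold. The list was chosen with earlier results of these data known. Its counts include Fkbp5, Zbtb16 and Ddit4 themselves, so they are no independent check of those genes. The part of the sex-linked shares, which moved with the group over all fibroblasts and overlapped in cluster 44, was not tested. Fkbp5 stood at 1296, 1404, 643 and 513 (log2 fold change -1.20, SE 0.32), Zbtb16 at 951, 798, 379 and 352 (-1.23, SE 0.28) and Ddit4, a stress-induced inhibitor of mTOR, at 122, 66.8, 27.1 and 29.3 (-1.58, SE 0.42), each with an edgeR adjusted p of 1. Errfi1, an inhibitor of EGF receptor signalling, was the exception at 523, 505, 815 and 383. Within clusters, which are parts of the same libraries, 12 of 12 in cluster 44 were below 0, beside 56.9% of all its genes, and the counts lower without overlap were 7 of 12 there, 7 of 12 in cluster 47 and 5 of 10 in cluster 27, beside 21.3%, 12.4% and 16.7% of all genes.

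Fkbp5 was also measured in neighbouring cell types. It stood at 223, 447, 122 and 75.8 in endothelial cells, at 93.4, 72.4, 20.3 and 41.1 in mural cells and at 248, 178, 47.9 and 72.9 in oligodendrocytes. The difference between its effect in fibroblasts and in endothelial cells was 0.54 on the log2 scale (SE 0.41, edgeR adjusted p = 0.999), and from mural cells 0.04 (SE 0.44, adjusted p = 1). For Zbtb16 the differences were 0.03 (SE 0.36) and 0.34 (SE 0.37), and the gene passed the threshold in mural cells by itself (log2 fold change -1.64, SE 0.25, edgeR adjusted p = 2.23e-06). The standard error was below the difference only for Fkbp5 against endothelial cells (0.41 for 0.54) and above it in the other comparisons of Fkbp5 and Zbtb16. The effects were thus not shown to differ, nor to be alike.

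In cluster 27, 10 of 7179 genes rose (0.139%) and 4 fell (0.0557%), together 0.195%, while 349 (4.86%) had an unadjusted p under 0.05. Control 1 entered with 7 nuclei and 19938 UMIs, against 115, 66 and 74 nuclei in the other libraries. The gene called with most nuclei behind it was Slc7a11 (chr3:49892526-50443614, minus strand), the exchanger that brings cystine into the cell in return for glutamate. It stood at 602, 1050, 3279 and 3121 CPM in control 1, control 2, AgRP-Gq;POMC-Gi 1 and AgRP-Gq;POMC-Gi 2, with UMIs in 3, 88, 60 and 70 nuclei. Both AgRP-Gq;POMC-Gi libraries lay above both controls, and the log2 fold change was 2.00 (SE 0.41, edgeR adjusted p = 0.00414). It passed in 5 of 9 other settings, with an adjusted p from 4.95e-07 to 0.999 and a log2 fold change from 1.66 to 2.76, and was lost with DESeq2, when genes had to be seen in at least 10% of nuclei, and without either AgRP-Gq;POMC-Gi library. Some marker sums of cluster 27 were also apart between groups, in library order 3962, 3480, 7940 and 6506 for the 10 inner arachnoid markers (3360, 2431, 4661 and 3386 without Slc7a11, which is one of them), 652, 1269, 1420 and 1719 for the 10 arachnoid barrier markers, 853, 335, 235 and 300 for the 7 mural markers and 100, 93.1, 22.8 and 17.7 for the 5 markers of oligodendrocyte precursors. Markers of Schwann cells stood at 201, 149, 137 and 118. Their part in the calls of this cluster was not tested.

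The group effect on Slc7a11 was not compared between clusters by a test. In cluster 44 it stood at 217, 640, 972 and 1146 (log2 fold change 1.29, SE 0.34, edgeR adjusted p = 0.277), and in cluster 69 at 658 in control 2, 1494 in AgRP-Gq;POMC-Gi 1 and 2673 in AgRP-Gq;POMC-Gi 2. In cluster 47 it stood at 1207, 430, 277 and 661, with the groups mixed (log2 fold change -0.21, SE 0.73), and in cluster 93 it was near 0. Over all fibroblasts the values were 345, 581, 1580 and 1907, with UMIs in 20, 176, 117 and 111 nuclei. The log2 fold change of 1.91 (SE 0.37, unadjusted p = 0.00127) had an edgeR adjusted p of 0.921, and DESeq2 called the gene with an adjusted p of 0.0259. Control 1 was mostly cluster 44, where Slc7a11 was lower than in cluster 27, and a fit with cluster as a term gave a log2 fold change of 1.21. In astrocytes it stood at 142, 149, 199 and 199 and in tanycyte-like cells at 512, 450, 1321 and 779.

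The sequence before the start of Slc7a11 is shown because the gene is the transporter with a call in these cells and is known as a target of the amino acid response, in which the factor ATF4 binds the letters TGATGCAAA. The 250 bases upstream of the RefSeq start site (GRCm38.p6, chr3:50443614-50443863, minus strand, written 5′ to 3′) have that motif in capitals on the strand of the gene at bases -66 to -58 and, reversed, as TTTGCATCA at bases -48 to -40.
Slc7a11: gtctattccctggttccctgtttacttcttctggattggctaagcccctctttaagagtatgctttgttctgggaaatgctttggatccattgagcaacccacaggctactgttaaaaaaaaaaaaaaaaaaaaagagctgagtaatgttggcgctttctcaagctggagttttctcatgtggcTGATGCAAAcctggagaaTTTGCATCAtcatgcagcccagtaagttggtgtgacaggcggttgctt
The motif occurs on either strand in 74 of 32851 such windows (0.225%) and on both strands in 1, which is this one (0.00304%). The motif was chosen because Slc7a11 is known as a target of that response, so these shares are a description and no test. A match is a run of letters and shows no binding in these nuclei.

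The other genes that rose in cluster 27 included the Y-linked Uty, Ddx3y and Kdm5d, and Tsix, the antisense partner of Xist, fell. Uty stood at 201, 26.1, 129 and 312, and Tsix at 802, 525, 334 and 0, beside a share of nuclei with Xist of 57.1%, 80.9%, 50% and 1.35% in this cluster. Reads of Tsix and Xist, which overlap, may not be separable. The part of these sex-linked shares in the other calls was not tested. Of these, Npas2, a transcription factor of the circadian clock, stood at 100, 33.5, 190 and 177 (log2 fold change 2.28, SE 0.56, edgeR adjusted p = 0.0382). Pde4b, Ctnna2, Rad51b, Txnip and Gm47712 had log2 fold changes of 2.44, 2.30, 2.28, 1.96 and 2.45, with no UMI of Pde4b, Ctnna2 or Rad51b in the 7 nuclei of control 1. A single nucleus held 11 of the 21 UMIs of Pde4b in AgRP-Gq;POMC-Gi 1 and another 13 of 22 in AgRP-Gq;POMC-Gi 2, and for Ctnna2 the highest nuclei held 15 of 28 and 13 of 39. The groups overlapped for Txnip (150 and 70.7 in the controls against 471 and 124) and for Gm47712 (201 and 18.6 against 197 and 165).

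Mgp, matrix Gla protein, which binds calcium and holds back mineral deposition, fell in cluster 27. It stood at 301, 696, 83.5 and 135, from 2, 56, 6 and 16 nuclei, and the log2 fold change was -2.28 (SE 0.41, edgeR adjusted p = 0.000201). Without control 2 it was -1.08 with an adjusted p of 0.619, within a range of 3.55e-12 to 1 over 9 settings. In cluster 47 the groups overlapped, with Mgp at 259 and 899 in the controls and at 1325 and 461 in AgRP-Gq;POMC-Gi 1 and 2, and it was highest in cluster 93. Dusp1, a phosphatase of MAP kinases, and Ccn1, a matricellular protein, had their UMIs almost wholly in control 2 (32 of 35 and 55 of 63). Control 1 had none of either in its 7 nuclei, so these falls rest on control 2.

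In cluster 47, 0 of 8329 genes (0%) passed in edgeR and 0 in DESeq2, with 107 at an unadjusted p under 0.05 (1.28%). Over all fibroblasts 0 of 7973 genes (0%) passed in edgeR, 229 had an unadjusted p under 0.05 (2.87%), and DESeq2 called 2, Slc7a11 and Gpc5. The smallest unadjusted p values were those of Gpc5 (428, 721, 92.6 and 115 CPM, from 3, 71, 8 and 8 nuclei, log2 fold change -2.48, SE 0.33, and -1.66 with cluster as a term), the long noncoding RNA Gm12381 (33.4, 38.2, 165 and 137, 2.05, SE 0.30), Uty (55.6, 82, 210 and 259), Gm20756 (5.56, 11.4, 83.5 and 56.1) and Igf1, the growth factor of the insulin family (77.9, 61.1, 235 and 188, 1.69, SE 0.30, and 1.27 with cluster as a term). Igf1 was highest in cluster 27, where it stood at 351, 123, 448 and 341, and in cluster 44 it stood at 54.4, 32.8, 125 and 56.4. The groups did not overlap in cluster 44 and did in cluster 27.

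By role, 0 members of any list passed over all fibroblasts in edgeR, while DESeq2 called the transporter Slc7a11 (adjusted p = 0.0259). Of the 14 Wnt pathway genes tested, 14 had a log2 fold change above 0, beside 49.6% of all genes, with a median of 0.46, and 7 were higher without overlap beside 15.1% of all genes. The part of the sex-linked shares and of the mix of clusters in these values was not tested. Wnt4 (50.1, 135, 330 and 146) and Wnt5a (122, 105, 217 and 144) gave 1.25 (SE 0.52) and 0.72 (SE 0.31). Within cluster 27, 10 of 13 were above 0 (55% of all genes) with 4 higher and 1 lower without overlap, where 17.4% of all genes were higher. Within cluster 44, 5 of 8 were above 0 (43.1%) with 1 higher and 0 lower, beside 14% higher, and within cluster 47, 9 of 14 were above 0 (52.6%) with 2 higher and 1 lower, beside 15.9% higher. Of 8 retinoic acid genes 7 were above 0 over all fibroblasts (median 0.35), but 5 of 8 in cluster 27 (0.12), 2 of 4 in cluster 44 (0.05) and 5 of 10 in cluster 47 (0.02). Of 27 transporters 18 were above 0 (median 0.22), with 15 of 22 in cluster 27 (0.31), 12 of 19 in cluster 44 (0.07) and 11 of 21 in cluster 47 (0.05). Fibrillar collagens (median 0.02 over 11), basement membrane genes (-0.05 over 23) and proteoglycans (-0.03 over 22) lay near the median of all genes, with 1, 5 and 2 members higher and 0, 1 and 2 lower without overlap, where 15.1% of all genes were higher and 17.1% lower. Within cluster 47, basement membrane genes were above 0 in 19 of 23 (median 0.61 against 0.04 over all genes), with 8 higher and 0 lower without overlap beside 15.9% higher. Fibrillar collagens there were above 0 in 8 of 10 (median 0.53). Prostaglandin genes were below 0 in 5 of 6 (median -1.50), with 3 lower and 0 higher beside 12.4% lower. Control 1 entered cluster 47 with 6 nuclei and 11603 UMIs, so 1 UMI stood for 86.2 CPM. Xist was seen in 100% and 37.9% of its control nuclei against 28.6% and 0%, and the part of these shares was not tested. Marker sums that were apart between groups in that cluster, in library order, were 8963, 8335, 9679 and 9372 for pan-fibroblast markers, 3792, 3069, 2189 and 2230 for dural border markers, 345, 180, 154 and 165 for endothelial markers and 86.2, 202, 339 and 213 for neuron markers, and their part was not tested. Within cluster 44, basement membrane genes were above 0 in 16 of 21 (median 0.23 against -0.11), with 5 higher and 3 lower beside 14% and 21.3%. Within cluster 27 it was 12 of 22 (median 0.05, the same as over all genes). Of 12 clock genes 5 were lower and 0 higher without overlap (median -0.14), and of 7 other immediate early genes 4 were lower and 0 higher (median -0.50), beside the same 17.1% and 15.1% of all genes. Within clusters 27, 44 and 47 the other immediate early genes lower without overlap were 2 of 8, 0 of 5 and 0 of 7 (medians -0.94, -0.06 and -0.16), with 0 higher. Clock genes were lower in 5 of 12, 4 of 10 and 4 of 11 and higher in 3, 1 and 1 (medians 0.07, -0.23 and -0.41), beside 16.7%, 21.3% and 12.4% of all genes lower.

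Markers of other cell types did not all stay level across the libraries of the fibroblasts. Over the 4 libraries their summed levels were 234, 224, 228 and 181 CPM for 5 astrocyte markers, 100, 191, 169 and 183 for 5 neuron markers, 795, 636, 564 and 737 for 5 oligodendrocyte markers and 523, 305, 219 and 422 for 7 mural markers. The 6 choroid plexus markers were at 111, 5046, 117 and 3725, in the order of the numbers of choroid plexus nuclei in the libraries and not in that of the groups. In cluster 47 these 6 markers were at 0, 9848, 524 and 5423. The groups were apart for the 5 microglia markers, whose sum was 245 and 149 in control 1 and 2 but 111 and 117 under the AgRP-Gq;POMC-Gi genotype. In cluster 44 these sums were 311, 115, 150 and 188 in library order, and the groups overlapped. Of the lists for layers, the groups were also apart over all fibroblasts for the arachnoid barrier (851, 1312, 1373 and 1499) and for the inner arachnoid (1897, 4063, 7531 and 4069), where they overlapped once Slc7a11 was left out (1552, 3482, 5951 and 2163). The part of these markers in the differences above was not tested.

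The group effect was set against that in endothelial and mural cells, the vessel cells that lie next to fibroblasts. Of 5327 genes tested against endothelial cells 0 differed (0%, with 216 at an unadjusted p under 0.05, 4.05%), and of 5388 against mural cells 1 did (0.0186%, with 233 unadjusted, 4.32%). That gene was Grip1 (chr10:119453830-120087261), a scaffold that gathers receptors and matrix proteins at the membrane. In fibroblasts it stood at 189 and 190 in the controls, 29.3 in AgRP-Gq;POMC-Gi 1 and 90.3 in AgRP-Gq;POMC-Gi 2, and in mural cells at 24.3 and 37.4 against 101 and 183. The log2 fold changes were -1.67 (SE 0.44, edgeR adjusted p = 1) and 2.35 (SE 0.34, edgeR adjusted p = 1.04e-06), and their difference was -3.90 (SE 0.45, edgeR adjusted p = 0.000132). It was -3.65 (SE 0.48, adjusted p = 0.2) once AgRP-Gq;POMC-Gi 1 was left out, and 0 genes then passed, while over the 5 other settings the adjusted p of Grip1 ranged from 1.04e-08 to 0.000959. Within fibroblasts its UMIs were mostly in clusters 47 and 93. In control 1, 28 of 34 UMIs came from the 3 nuclei of cluster 93 and 4 from cluster 47, and in control 2, 83 and 96 of 199. Cluster 47 stood at 345, 421, 30.8 and 186 CPM, and cluster 93, where a library had at least 5 nuclei, at 412 in control 2 and 86.9 in AgRP-Gq;POMC-Gi 1. With cluster as a term the log2 fold change of Grip1 in fibroblasts was -1.21. The part of the mix of clusters and of the sex-linked shares in the Grip1 values was not tested.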

How the data were processed

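Nuclei were isolated from frozen hindbrain, sorted by DRAQ5 as single nuclei and sequenced with the 10x Genomics 3′ kit. The authors deposited raw UMI counts per gene and nucleus (Cell Ranger 7.0.0, GRCm38/mm10, per the submitters' processing notes, with Seurat 4.3.0) and a table of nuclei with quality calls, clusters and cell types. Of 44303 barcodes 39461 were kept by the authors, who removed nuclei under 800 UMIs or 500 genes or over 10% mitochondrial RNA, and their doublet detection was not rerun. Columns scoring immediate early genes by group hold the authors' own comparison and were not used. Kept nuclei held 48904976 to 53089402 UMIs per library.

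UMI counts were summed per library and set and tested in R 4.3.3 by the quasi-likelihood test of edgeR 4.0.16 after TMM scaling. The SE given with a log2 fold change is the absolute change divided by the square root of that test's F statistic. Genes seen in fewer than 5% of nuclei were left out, and tests were made for sets with at least 5 nuclei in every library. DESeq2 1.42.0 was an alternative. Shares were compared with exact permutation tests (Python 3.11.15, scipy 1.17.1). Scripts were tested on simulated data. Replicate numbers are not stated to pair the libraries, and the correlation of replicate differences between groups was -0.15 over 7973 genes. Gene positions come from GENCODE M21, which held 32158 of the gene identifiers; 1 listed gene, Ccl19, was absent. Named genes were the 20 with the largest ratio over the next cell type, the 6 leading each cluster, the 12 with the largest change past the threshold in each direction (filled up by p among genes without overlap), list members past the threshold, the 4 highest of each list, and marker genes. Other genes with values in the text were chosen after their values were seen. Members and lists were chosen with earlier results of these data known.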

Additional observations from a re-analysis of the deposited data

Results flagged for a closer look

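The group effect on Grip1 differed between fibroblasts and mural cells by -3.90 on the log2 scale (SE 0.45, edgeR adjusted p = 0.000132, 1 of 5388 genes), with both AgRP-Gq;POMC-Gi libraries below both controls in fibroblasts and above both in mural cells. In fibroblasts alone the change did not pass the threshold, and UMIs came from 5, 74, 10 and 21 nuclei of control 1, control 2, AgRP-Gq;POMC-Gi 1 and AgRP-Gq;POMC-Gi 2. With cluster as a term the log2 fold change in fibroblasts was -1.21, against -1.67 without it. Of the 34 UMIs of control 1, 28 came from 3 nuclei of cluster 93. Without AgRP-Gq;POMC-Gi 1 the difference was -3.65 (SE 0.48) and did not pass (edgeR adjusted p = 0.2).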

How the results depend on the processing

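The numbers of genes past the threshold depended on the fit. Over all fibroblasts (0 genes), DESeq2 called 2, a fit without a filter on genes 42, and fits without 1 library 0 to 2. In cluster 27 (14 genes), DESeq2 called 0, a filter at 10% of nuclei 1, and fits without 1 library 0 to 34, with 34 without control 1, 8 without control 2 and 0 without either AgRP-Gq;POMC-Gi library. In cluster 44 (6 genes), DESeq2 and the 10% filter called 0, and fits without 1 library 8 to 33, with 9, 8, 17 and 33 in library order. In cluster 47 (0 genes), library size alone gave 1 and fits without 1 library 0 to 1. Genes differing from endothelial cells (0) numbered 0 to 38 without 1 library, with 38 without control 2, and from mural cells (1) 0 to 17, with 0 without AgRP-Gq;POMC-Gi 1. Where a fit left 1 library in a group, that library was assumed to vary like the others. The replicate numbers are not stated to pair the libraries. Differences between replicates had a correlation between groups of -0.15 over all fibroblasts and -0.04 in cluster 44. Choroid plexus nuclei, however, numbered 2 and 6 in the replicate 1 libraries and 436 and 329 in the replicate 2 libraries. Whether same-numbered libraries were handled together is not stated. With a replicate block 3 genes passed in cluster 27, 1 in cluster 44, 2 in cluster 47 and 0 over all fibroblasts. Crossed pairing, added after seeing the data, gave 2, 14, 0 and 0. The log2 fold changes of Dusp1 and Ccn1 in cluster 27 turned to 3.28 (SE 4.76) and 4.58 (SE 4.3) without control 2, where the remaining control had 0 UMIs of either, so that these are no measured rise, with ranges of -3.91 to 3.28 and -7.43 to 4.58 over fits without 1 library. The fibroblast share turned to 10.5 points higher in AgRP-Gq;POMC-Gi libraries out of fibroblast, endothelial and mural nuclei, and ranged from -2.08 to 1.07 points without 1 library. Cluster shares without 1 library ranged from 10.1 to 29.8 points in cluster 27, -62.8 to -1.48 in cluster 44, -7.77 to 15.3 in cluster 47, -1.36 to 19 in cluster 69 and -8.63 to 7.88 in cluster 93, and cluster 93 turned to 0.331 among nuclei with at least 1500 UMIs. Of the 20 genes highest in fibroblasts 19 stayed highest at 800 UMIs per nucleus, and of the 30 leading cluster genes 29 or 30 did without 1 library. The cause of these changes was not tested.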

Other observations

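Gm11264, chosen after its values were seen, was seen in 20% or more of cluster 93 nuclei and had no UMI in the other fibroblast clusters of libraries with at least 5 nuclei. Cluster 47 of control 1 and of AgRP-Gq;POMC-Gi 1 held 6 and 14 nuclei, with Xist in 100% and 28.6% of them, against 37.9% of 87 nuclei in control 2 and 0% of 52 in AgRP-Gq;POMC-Gi 2. In cluster 44 Xist was seen in 60%, 44.1%, 65% and 3.57% of nuclei, which follows the order of the oligodendrocytes of the same libraries (53.7%, 37.1%, 60.9% and 2.39%).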
